A study of Mus musculus with 10 samples.

Results

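The data describe 9 mouse genes of the Sox family, Sox1, Sox2, Sox4, Sox5, Sox6, Sox8, Sox9, Sox11 and Sox21, in cultured neural stem and progenitor cells (NSPCs) held in 3 states. Chromatin accessibility was measured by ATAC-seq, in which a transposase cuts open chromatin, and promoter-type histone methylation by ChIP-seq for H3K4me3. A peak belonged to a Sox gene when it lay in the gene body or within 50 kb of it and the nearest protein-coding start site was one of that gene. Peaks of the 6 ATAC-seq libraries that overlapped or touched were joined into sites, which gave 149 sites of the 9 genes among 108367 sites genome-wide. The H3K4me3 lists gave 24 regions of the 9 genes among 17468.

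All cultures came from C57BL/6 mice at postnatal day 5. Activated NSPCs grew in Neurobasal A with B27, 20 ng/ml FGF2 and 20 ng/ml EGF, the conditions under which these cells divide. Quiescent NSPCs were kept, per the labels, for 4 days with 20 ng/ml FGF2 and 25 ng/ml BMP4 and without EGF, whereas the methods give a shorter time in that medium for the quiescent ATAC-seq cultures. Reactivated NSPCs spent 4 days in the quiescent medium and then 9 to 12 days back in the activating medium. Each state had 2 ATAC-seq libraries, and the quiescent and activated states had 1 H3K4me3 library each, so no state comparison of the histone mark has a replicate. These cultures hold stem cells together with the progenitors they produce, and in bulk chromatin a smaller share of cells with an open site cannot be told apart from weaker opening in each cell.

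Sox proteins bind DNA through an HMG box and bend it, and they recognise short A/T-rich sequences around ACAAT and ACAAAG. Sox1 and Sox2 (the SoxB1 group) keep neural progenitors undifferentiated, and Sox21 (SoxB2) acts against them. Sox4 and Sox11 (SoxC) act in neuronal precursors. Sox5 and Sox6 (SoxD) lack an activation domain of their own and work as partners of other factors, whereas Sox8 and Sox9 (SoxE) act in neural stem cells and glia.

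The ATAC-seq lists held 47037 to 60355 peaks in the 4 quiescent and activated libraries and 106270 and 106830 peaks in the reactivated ones, and they carry no read counts. Peak statistics gave a background pileup (the signal expected at an average position) of 12.1 in quiescent replicate 2 and of 6.01 to 6.61 in the other libraries. At that average background the caller's limit came to a fold enrichment (peak height over background) of 1.99 in quiescent replicate 2 and of 2.26 to 2.42 elsewhere. It was not a floor at every site, since a Sox21 site had a called peak of 2.09 in activated replicate 2. Promoters of 5 of 7 genes that mark NSPCs had a peak in every library, and the 4 endothelial markers had none in any library. Of 5 microglial markers, Csf1r, Aif1 and Ptprc had no promoter peak in any library, and in each library 1 of the other 2 had one. Of 5 markers of the oligodendrocyte lineage, Olig2, Pdgfra and Cspg4 had a promoter peak in every library and Mog in none, and 4 had H3K4me3 in both states. Of 5 neuronal markers 2 had one in each quiescent library, 4 and 3 in the activated and all 5 in each reactivated library, and the part of these other cell types in the results was not tested.

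The sequences below are the 200 bases around the summit of 10 sites on which the results turn, from GRCm38 (mm10) and read on the strand of the Sox gene. Capitals mark ACAAT or ACAAAG on either strand, and distances in the text run from the summit to the nearest protein-coding start site of the gene. The first 3 are activated-specific sites (a peak in both activated libraries and in no quiescent library) of Sox5, Sox6 and Sox2. They lie in introns of Sox6 and Sox5 (chr7:115669685-115669884 and chr6:144045571-144045770, minus strand) and in an intron of the long non-coding RNA gene Sox2ot near Sox2 (chr3:34659889-34660088, plus strand). They are shown because Sox5 and Sox6 held most of the activated-specific sites.

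Sox6 intron, activated-specific: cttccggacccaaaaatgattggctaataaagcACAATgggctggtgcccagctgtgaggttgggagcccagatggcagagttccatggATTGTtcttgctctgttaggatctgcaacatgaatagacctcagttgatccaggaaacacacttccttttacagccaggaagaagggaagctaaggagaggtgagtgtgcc
Sox5 intron, activated-specific: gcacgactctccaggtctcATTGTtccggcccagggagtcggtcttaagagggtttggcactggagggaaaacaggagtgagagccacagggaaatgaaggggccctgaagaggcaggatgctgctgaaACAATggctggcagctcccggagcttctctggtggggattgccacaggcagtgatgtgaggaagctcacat
Sox2 downstream, activated-specific: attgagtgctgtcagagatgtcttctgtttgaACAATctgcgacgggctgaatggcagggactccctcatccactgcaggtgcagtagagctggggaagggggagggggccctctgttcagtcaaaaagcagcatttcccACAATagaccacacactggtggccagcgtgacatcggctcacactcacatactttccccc

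The next 3 lie downstream of Sox9 (chr11:112817840-112818039 and chr11:112811186-112811385, plus strand, between genes) and of Sox1 (chr8:12401104-12401303, plus strand, in an intron of Sox1ot). The first of them is activated-specific, and the others are the 2 sites open in all libraries that were higher in activated NSPCs by test.

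Sox9 downstream, activated-specific: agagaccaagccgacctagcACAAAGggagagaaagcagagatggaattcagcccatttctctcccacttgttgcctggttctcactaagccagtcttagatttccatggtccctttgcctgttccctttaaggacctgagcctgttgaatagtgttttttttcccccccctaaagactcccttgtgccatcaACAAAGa
Sox9 downstream, higher in activated: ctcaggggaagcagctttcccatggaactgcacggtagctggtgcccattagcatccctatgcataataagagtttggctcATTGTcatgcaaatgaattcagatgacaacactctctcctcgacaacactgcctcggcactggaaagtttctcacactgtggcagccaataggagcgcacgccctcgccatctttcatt
Sox1 downstream, higher in activated: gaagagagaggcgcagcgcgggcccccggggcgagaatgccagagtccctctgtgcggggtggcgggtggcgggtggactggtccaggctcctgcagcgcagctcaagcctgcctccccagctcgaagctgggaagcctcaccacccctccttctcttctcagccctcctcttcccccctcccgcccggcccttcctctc

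The last 4 are both quiescent-specific sites, in an intron of Sox5 (chr6:143845916-143846115, minus strand) and downstream of Sox8 (chr17:25556239-25556438, minus strand), an intronic site of Sox6 with the highest reactivated value of any of the 149 sites (chr7:115722064-115722263, minus strand), and the promoter of Sox2 (chr3:34649811-34650010, plus strand).

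Sox5 intron, quiescent-specific: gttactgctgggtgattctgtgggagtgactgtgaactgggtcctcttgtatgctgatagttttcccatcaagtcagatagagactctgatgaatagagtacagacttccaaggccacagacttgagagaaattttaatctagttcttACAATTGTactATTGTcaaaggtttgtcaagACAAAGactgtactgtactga
Sox8 downstream, quiescent-specific: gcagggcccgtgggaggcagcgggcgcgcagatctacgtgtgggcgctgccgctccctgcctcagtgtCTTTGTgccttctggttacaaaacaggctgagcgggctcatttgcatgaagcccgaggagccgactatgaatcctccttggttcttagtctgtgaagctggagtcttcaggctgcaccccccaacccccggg
Sox6 intron, open in all libraries: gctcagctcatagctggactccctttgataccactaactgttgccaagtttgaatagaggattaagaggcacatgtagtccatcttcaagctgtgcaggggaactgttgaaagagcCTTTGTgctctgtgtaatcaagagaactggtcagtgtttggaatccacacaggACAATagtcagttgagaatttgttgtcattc
Sox2 promoter, open in all libraries: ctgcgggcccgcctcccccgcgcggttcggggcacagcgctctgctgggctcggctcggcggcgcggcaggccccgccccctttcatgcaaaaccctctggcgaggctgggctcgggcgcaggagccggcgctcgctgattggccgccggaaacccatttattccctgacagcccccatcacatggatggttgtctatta

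The promoters of 8 of the 9 genes were open in every state. A site within 1 kb of a protein-coding start site had a peak in all 6 libraries at Sox1, Sox2, Sox21, Sox4, Sox11, Sox5, Sox8 and Sox9, as at 47.6% of 21829 protein-coding genes. The number was 7 with lists of equal length and 9 without quiescent replicate 2. The Sox2 promoter had a fold enrichment of 10.3 and 11.1 in the quiescent libraries, 9.07 and 7.17 in the activated and 6.84 and 10.7 in the reactivated libraries. Both quiescent values lay above both activated values, and the reactivated values overlapped with both states. The Sox21 promoter had 8.33 and 10.9 in the quiescent libraries, 8.17 and 8.12 in the activated and 8.46 and 10.2 in the reactivated libraries. The Sox11 promoter had 7.66 and 8.53, 8.07 and 8.16, and 9.15 and 10.8 in the same order. For Sox11 the quiescent and activated values overlapped, and the reactivated values were the higher ones before centring only.

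The Sox1 promoter had 5.72 and 7.54 in the quiescent libraries, 9.73 and 8.06 in the activated and 8.56 and 9.73 in the reactivated libraries. Sox4 had 7.18 and 7.0, 9.32 and 6.86, and 6.78 and 7.56. As deposited, Sox1 was lower in both quiescent libraries than in the other 4, and the values of Sox4 overlapped between all states. At Sox5 the strongest promoter site, which serves an internal start site, had 6.44 and 7.18, 10.5 and 6.99, and 13.3 and 11.4. The SoxE promoters had 4.43 and 6.53, 5.43 and 6.09, and 4.92 and 7.10 at Sox8, and 7.45 and 8.59, 7.98 and 5.62, and 10.5 and about 10 at Sox9. Among these 3 genes, both deposited reactivated values exceeded all 4 others at Sox5 and Sox9.

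These are deposited values, and over shared sites fold enrichment was higher in reactivated than in quiescent libraries by 0.86 on the log2 scale and higher than in activated libraries by 0.71. That shift applies to every order of reactivated values given here without centring. Centred on each library's median, the reactivated minus quiescent difference was -0.57 at the Sox11 promoter (limma adjusted p = 0.0444) and -0.85 at the Sox4 promoter (limma adjusted p = 0.00737). The Sox11 call was lost without any 1 of the 4 libraries (limma adjusted p from 0.0647 to 0.224) and with quantile normalisation (-0.48, limma adjusted p = 0.0889), and the Sox4 call without quiescent replicate 2 (limma adjusted p = 0.0589). It was -0.39 at Sox1 (limma adjusted p = 0.178), -0.50 at Sox9 (limma adjusted p = 0.0671) and 0.00 at Sox5 (limma adjusted p = 0.989), none of which passed the test. At Sox11, Sox1 and Sox9, where both reactivated values had been above both quiescent ones, the direction thus turned with centring. The centred difference between activated and quiescent NSPCs at the Sox1 promoter was 0.21 and did not pass either (limma adjusted p = 0.601).

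Sox6 was the exception. Its strongest promoter site, 764 bp upstream of an internal start site, had no peak in either quiescent library. It reached 7.29 and 5.70 in the activated and 9.18 and 8.38 in the reactivated libraries. A Sox6 site near any start site had a peak in 5 of 6 libraries, and the quiescent state contributed a single peak of 3.49 in replicate 1, at another start site. A further site within 1 kb of the first Sox6 start site (chr7:116039707-116040526) was not counted, because the start site of 1110004F10Rik is nearer. That site was open in all 6 libraries, at 3.94 and 3.52 in the quiescent libraries, 5.90 and 7.27 in the activated and 8.59 and 11.2 in the reactivated libraries. With such sites counted, all 9 genes had a promoter peak in every library, against 52.5% of protein-coding genes.

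**Figure D1:**
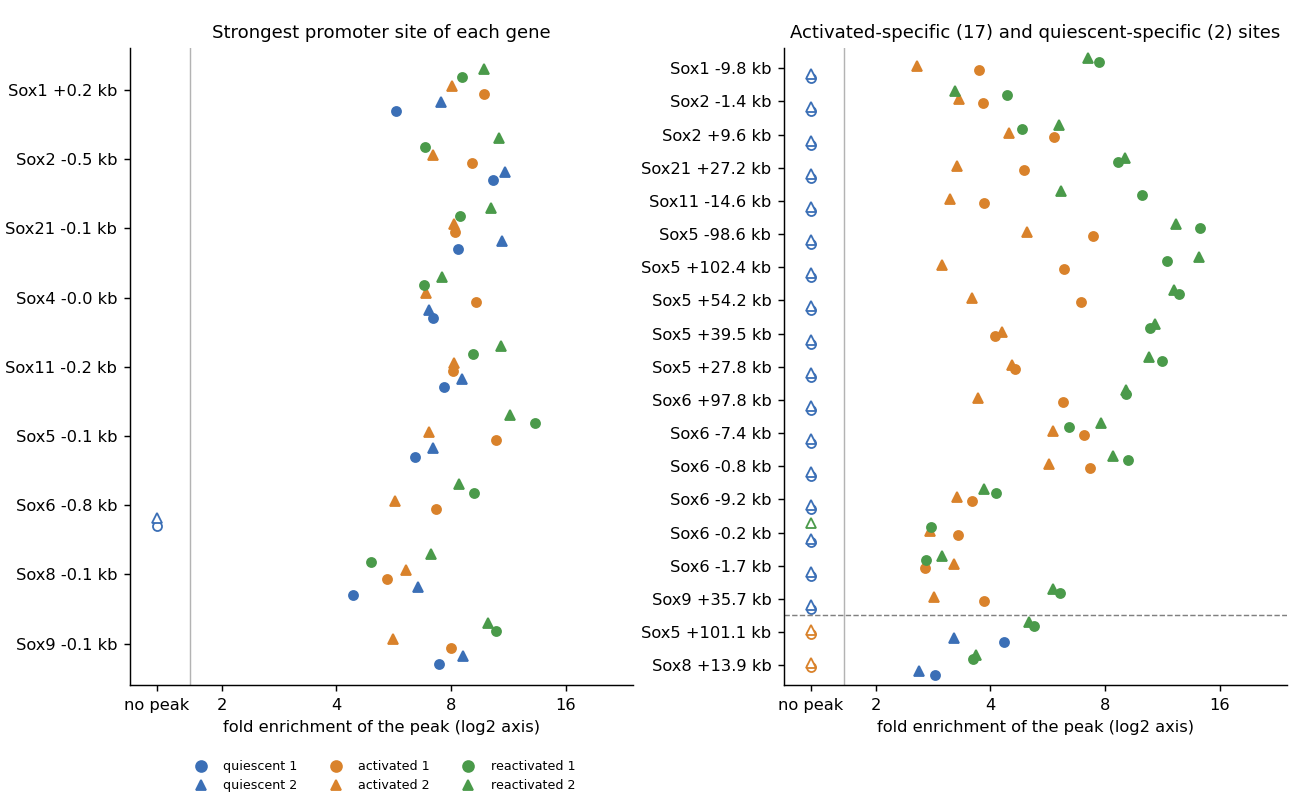
Fold enrichment (log2 axis) in each ATAC-seq library at the strongest promoter site of each Sox gene (left) and at the 17 activated-specific and 2 quiescent-specific sites (right), labelled by the distance of the summit from the nearest start site of the gene. Points are single libraries, and open symbols at the left edge mark libraries with no peak, as for both quiescent libraries at the Sox6 promoter.

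Over all their sites, promoters included, these genes had more sites specific to activated than to quiescent NSPCs, in number and relative to the genome. Of 57 Sox gene sites with a peak in at least 2 of the 4 quiescent and activated libraries, 17 were activated-specific (29.8%) and 2 were quiescent-specific (3.51%), and 38 had peaks in both states. Genome-wide, 9.97% of 46050 such sites were activated-specific and 14.7% were quiescent-specific. The order of the 2 shares among the Sox gene sites was the opposite of that genome-wide, but the genome-wide order turned without activated replicate 2. It was then 16.4% activated-specific and 11.6% quiescent-specific, with 25 and 3 Sox gene sites. The number of quiescent-specific Sox gene sites also moved with single libraries. Without quiescent replicate 1 there were 13 quiescent-specific and 17 activated-specific sites, without quiescent replicate 2 there were 6 and 20, and without activated replicate 1 there were 6 and 22. The genome-wide shares, quiescent-specific before activated-specific, were 23.8% and 9.29% without quiescent replicate 1, 20.4% and 11.4% without quiescent replicate 2, and 16.1% and 11.7% without activated replicate 1.

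Sox5 and Sox6 held 11 of the 17 activated-specific sites, among 25 sites of these 2 genes (44.0%). The other 7 genes held 6 among 32 (18.8%), also above the genome-wide 9.97%. These genes differ in size, since Sox5 spans 954 kb and Sox6 568 kb while the others span 2.06 to 8.31 kb. Sox5 and Sox6 had 41 sites each and the others 6 to 15, and the part of gene length in this was not tested. In the 2 quiescent libraries Sox6 had 5 and 6 sites with a peak, in the activated libraries 15 and 9, and in the reactivated libraries 33 and 30. Sox5 had 9 and 11, 14 and 10, and 35 and 32. Set against the length of the lists, the sites of all 9 genes made up 0.939 and 1.02 of every 1000 sites in quiescent, 1.42 and 1.42 in the activated and 1.54 and 1.38 in the reactivated libraries. For the 9 genes together the quiescent values were below all others. For the 7 genes without Sox5 and Sox6 they were 0.610 and 0.661, against 0.756 and 0.888 in the activated and 0.694 and 0.614 in the reactivated libraries. Among these 7 genes quiescent replicate 2 lay above reactivated replicate 2.

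Sites that were open in all 6 libraries lay outside the promoters of the Sox genes as well. The Sox2 site 7.64 kb upstream, at a start site of Sox2ot, had 6.97 and 5.96 in the quiescent libraries, 7.80 and 5.93 in the activated and 9.94 and 9.91 in the reactivated libraries. The Sox8 site 8.46 kb downstream, within 1 kb of another annotated start site, had 6.86 and 7.59, 7.91 and 7.99, and 7.16 and 7.79 in the same order. The quiescent and activated values overlapped at the Sox2 site, and at the Sox8 site the 6 deposited values lay within a narrow range. After centring the Sox8 site was lower in reactivated NSPCs, with a difference of -0.82 against quiescent (limma adjusted p = 0.0102) and of -0.80 against activated NSPCs (limma adjusted p = 0.0334). Without centring these were 0.05 and -0.09. The call against quiescent was lost without quiescent replicate 2 (limma adjusted p = 0.0733), and that against activated with quantile normalisation (limma adjusted p = 0.0576) and without any 1 of its libraries (limma adjusted p from 0.0606 to 0.169).

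The Sox4 site 20.1 kb downstream had 3.94 and 2.98, 4.38 and 4.56, and 11.2 and 5.19, so that its reactivated replicates differed most. The Sox1 site 34.9 kb downstream had 3.96 and 2.37, 5.28 and 3.58, and 7.61 and 8.39. Over the 26 sites open in all libraries the median fold enrichment was 4.59 and 4.73 for the quiescent libraries, 6.70 and 5.94 for the activated and 7.70 and 8.82 for the reactivated ones. Over all shared sites deposited values were higher in activated than in quiescent libraries by 0.22 on the log2 scale, and the centred median difference over these 26 sites was 0.01.

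**Figure D2:**
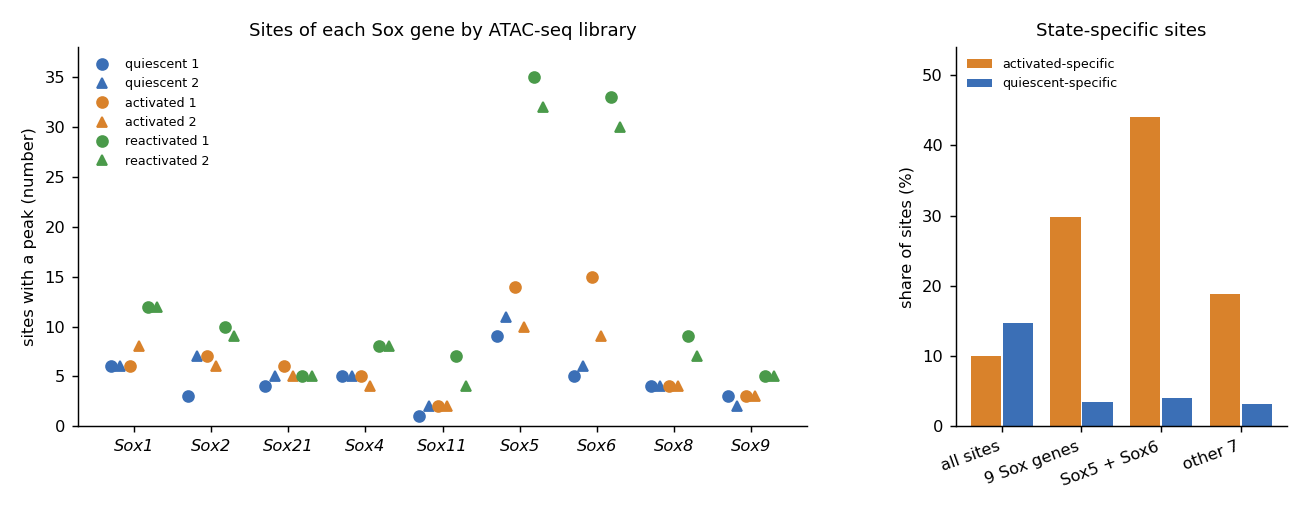
Left, number of sites with a peak for each Sox gene in each ATAC-seq library; right, percent of sites that were activated-specific (orange) or quiescent-specific (blue), over all sites and over the Sox gene sites with a peak in at least 2 of the 4 quiescent and activated libraries. Bars for the 9 genes stand at 29.8% and 3.51%, against 9.97% and 14.7% for all sites.

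In Sox5 the 5 activated-specific sites lay between 600 and 736 kb from the 5′ end of the gene. The highest of them in activated NSPCs, in an intron (chr6:144045438-144045916), had 7.43 and 4.99 in the activated and 14.2 and 12.3 in the reactivated libraries. A site at 675 kb had 6.23 and 2.99 in the activated and 11.6 and 14.1 in the reactivated libraries. The site at 627 kb, which overlaps an exon, had 6.90 and 3.57, then 12.5 and 12.1. All 5 were higher in both reactivated than in both activated libraries. The same stretch held a site open in every library at 725 kb (chr6:144056422-144057552), with 10.7 and 11.2 in the quiescent libraries, 10.6 and 8.41 in the activated and 16.7 and 16.8 in the reactivated libraries. That site was the strongest Sox5 site in the quiescent state.

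In Sox6 the 6 activated-specific sites were spread over the gene, at 6.00, 7.56, 205, 213, 369 and 474 kb from its 5′ end. The intronic site at 369 kb (chr7:115669248-115670006), overlapping an H3K4me3 region found in both states, had 7.04 and 5.85 in the activated and 6.43 and 7.82 in the reactivated libraries. The site at 474 kb had 6.21 and 3.71, then 9.07 and 9.10. The site at 7.56 kb, at the promoter of a transcript that starts there, had 3.29 and 2.78 in activated, 2.80 in reactivated replicate 1 and no peak in replicate 2. It was the only one of the 17 activated-specific sites that was not open in both reactivated libraries. Sox6 had a single site open in all 6 libraries, at 317 kb (chr7:115722012-115722372), with 6.70 and 5.58 in the quiescent libraries, 7.43 and 6.13 in the activated and 18.5 and 16.0 in the reactivated libraries.

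**Figure D3:**
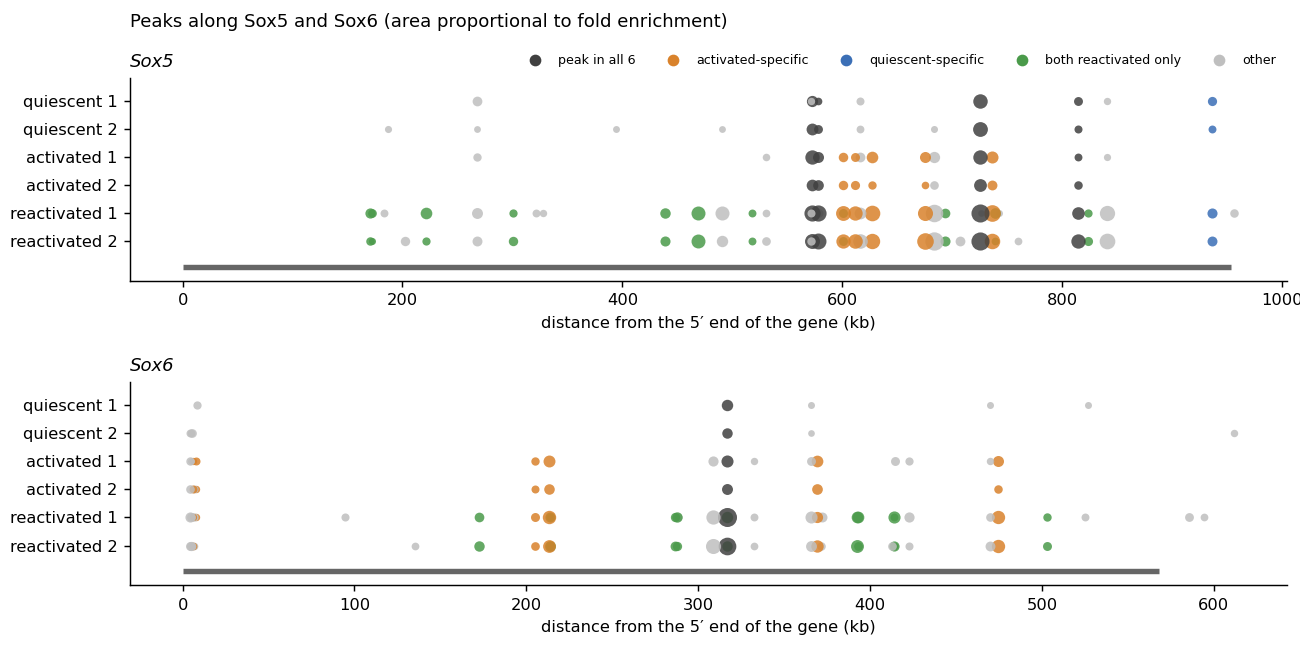
Peaks of each ATAC-seq library along Sox5 (954 kb) and Sox6 (568 kb), by distance from the 5′ end of the gene in kb, with the area of a point proportional to fold enrichment and the grey bar marking the gene. Orange marks activated-specific, blue quiescent-specific, green reactivated-only sites and black sites open in all 6 libraries. The 5 activated-specific Sox5 sites lie between 600 and 736 kb.

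The other activated-specific sites fell near 5 genes. Sox2 had 1 upstream (1.42 kb from the start site), at 3.82 and 3.32 in the activated and 4.43 and 3.24 in the reactivated libraries. It had another 9.58 kb downstream (chr3:34659828-34660143), at 5.89 and 4.49, then 4.83 and 6.05. Both lie in Sox2ot, which overlaps Sox2, and both overlap H3K4me3 regions found in the 2 states. At these Sox2 sites the activated and reactivated values overlapped.

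Sox1 had 1 site 9.80 kb upstream, at 3.73 and 2.57 in the activated and 7.70 and 7.21 in the reactivated libraries. Sox21 had 1 at the promoter of the neighbouring gene 4933431J24Rik, at 4.91 and 3.28, then 8.67 and 9.04. Sox11 had 1 between genes 14.6 kb upstream, at 3.85 and 3.14, then 9.99 and 6.12. Sox9 had 1 between genes 35.7 kb downstream (chr11:112817748-112818499), at 3.85 and 2.85, then 6.10 and 5.85. All 4 were higher in both reactivated than in both activated libraries, and none of the 17 had a value below 2.57 in an activated library. Sox4 and Sox8 had no activated-specific site.

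The quiescent-specific sites differed in height. The Sox5 site (chr6:143845734-143846170) had 4.34 and 3.21 in quiescent NSPCs, at percentiles 53.8 and 41.9 of those lists, and 5.20 and 5.05 in the reactivated libraries. The Sox8 site (chr17:25555829-25556509), 13.9 kb downstream and overlapping an H3K4me3 region found in both states, had 2.86 and 2.60 in quiescent NSPCs, at the lower percentiles 14.6 and 22.3, and 3.61 and 3.67 in the reactivated libraries. Both had peaks in both reactivated libraries, as did 55.0% of quiescent-specific sites genome-wide.

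Of the 17 activated-specific sites 16 had a peak in both reactivated libraries, against 91.9% of such sites genome-wide, so this share was near the background. Both reactivated values exceeded both activated values at 12 of these 16, against 70.1% genome-wide, again near the background. Among the 26 Sox gene sites open in all 6 libraries this was the case at 19, against 77.4% genome-wide. An H3K4me3 region of either state overlapped 8 of the 17 activated-specific sites (47.1%), against 15.5% of all activated-specific sites. For the 26 sites open in all libraries the overlap was 19 (73.1%), against 59.0% genome-wide.

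Sites with peaks in both reactivated libraries and in none of the other 4 numbered 31 of 103 with a peak in at least 2 of 6 libraries (30.1%), against 21.4% of 74759 genome-wide. Sox5 and Sox6 had 11 each, Sox4 had 3, Sox1 and Sox8 had 2 each, Sox2 and Sox11 had 1 each, and Sox9 and Sox21 had none. The strongest, in an intron of Sox5 (chr6:144312976-144313449), had 9.97 in reactivated replicate 2 and about 10 in replicate 1. Sox4, whose promoter was open throughout, had such sites 26.0 kb and 11.5 kb downstream, at 8.67 and 6.25 and at 6.21 and 5.59. H3K4me3 regions overlapped 10 of the 31 (32.3%), against 16.2% genome-wide. The number of reactivated-only sites was 8 rather than 31 when every list was limited to the 47037 peaks of highest fold enrichment. That is the length of the shortest list. With a -log10 q of at least 10 the number was 30. It was 57 without reactivated replicate 2, when a peak in the other reactivated library sufficed. The genome-wide share of such sites was not computed under these alternatives, so the contrast with 21.4% cannot be judged there.

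Whether open sites differed in height between quiescent and activated NSPCs was tested with limma on log2 fold enrichment, centred on each library's median, over the 23393 sites with a peak in all 4 libraries. Of 26 Sox gene sites in that test 2 were higher in activated and 0 in quiescent NSPCs at an adjusted p under 0.05. Genome-wide 4.67% of sites were higher in activated and 4.09% in quiescent NSPCs, so the share among the Sox gene sites was near the background. The median difference was 0.01 over the 26 sites and -0.07 over all.

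The Sox9 site 29.1 kb downstream (chr11:112811070-112811942) had 4.86 and 3.36 in the quiescent libraries, 9.33 and 7.84 in the activated and 13.0 and 12.7 in the reactivated libraries. The groups did not overlap, and the difference between activated and quiescent was 0.86 on the centred log2 scale (SE 0.21, n = 2 and 2, limma adjusted p = 0.0220). Without quiescent replicate 2 it was 0.64 with an adjusted p of 0.217. Sox9 marks neural stem cells and astrocytes, and this site also overlapped an H3K4me3 region found in both states.

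The Sox1 site 5.91 kb downstream (chr8:12400839-12401488) had 2.39 and 2.88 in the quiescent libraries, 5.53 and 4.61 in the activated and 6.24 and 5.61 in the reactivated libraries. The groups did not overlap between quiescent and activated, and the difference was 0.72 (SE 0.20, n = 2 and 2, limma adjusted p = 0.0434). The site did not pass with quantile normalisation (0.74, limma adjusted p = 0.0553) or with a variance trend (0.72, limma adjusted p = 0.0637). Leaving out any of the 4 libraries moved its adjusted p to between 0.0728 and 0.313. The largest difference in the other direction was at the Sox2 promoter, at -0.62 (limma adjusted p = 0.0675), which did not pass the test. The Sox21 site 6.44 kb downstream, at 3.41 and 4.55 in quiescent NSPCs and 7.19 and 7.04 in activated libraries, did not pass either, with a difference of 0.64 (limma adjusted p = 0.0977).

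**Figure D4:**
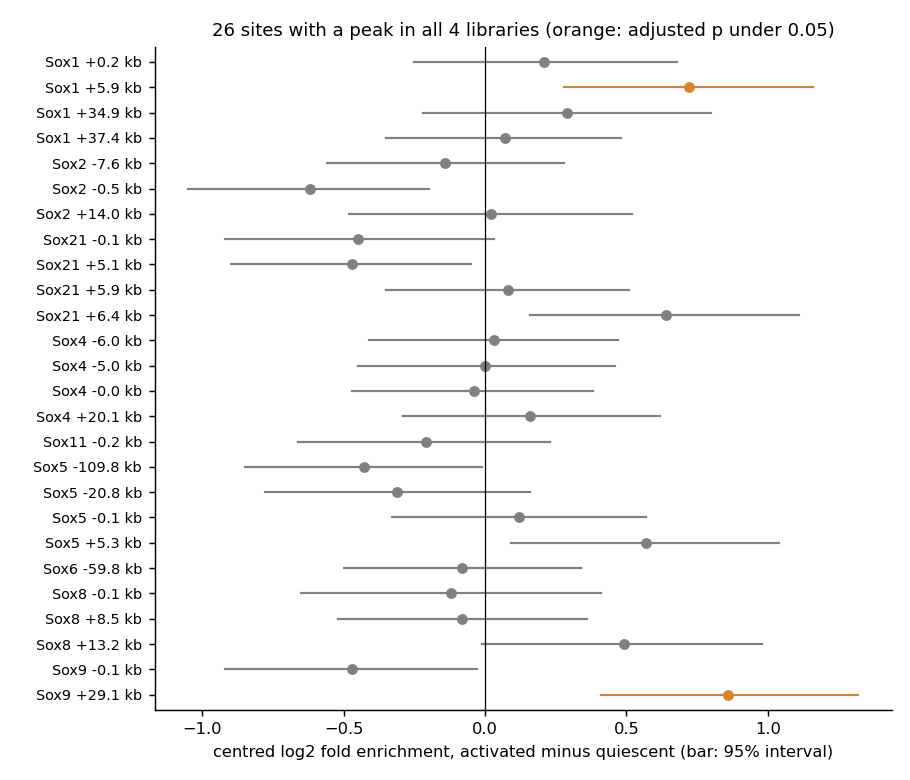
Difference in centred log2 fold enrichment (activated minus quiescent, with 95% interval) at the 26 Sox gene sites with a peak in all 4 libraries, from limma with 2 libraries a state. Orange marks the 2 sites past the threshold, at Sox1 and Sox9, with differences of 0.72 and 0.86.

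Comparisons with reactivated NSPCs depended on the scaling, and the following differences are relative to the shifts of 0.86 and 0.71 given above. Against quiescent NSPCs, 4 of 33 Sox gene sites were higher in reactivated NSPCs (9.24% genome-wide) and 10 were lower (22.9% genome-wide). Without centring 17 were higher and 0 lower, and with quantile normalisation 5 were higher and 5 lower. The 4 sites higher after centring passed the test on both of these scales as well, but none passed when missing peaks were set to the lowest value (limma adjusted p from 0.0611 to 0.108). They lay in Sox5 (a difference of 1.05), in Sox6 (0.62 and 0.63) and downstream of Sox9 (0.81). Without quiescent replicate 2, 2 sites were higher and 0 lower, and without quiescent replicate 1 the numbers were 2 and 7.

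The Sox5 site of these 4, 5.26 kb downstream of an internal start site (chr6:144203987-144204545), had 3.02 and 4.05 in the quiescent libraries, 6.21 and 5.85 in the activated and 13.4 and 13.0 in the reactivated libraries. The values were lowest in quiescent and highest in reactivated libraries without overlap, and the limma adjusted p against quiescent was 0.00690 (0.0623 without quiescent replicate 1). The Sox6 sites were the one open in all libraries described above (limma adjusted p = 0.0290) and an intronic one at 2.50 and 2.29 in quiescent NSPCs and 7.44 and 6.05 in the reactivated libraries (limma adjusted p = 0.0322). Neither Sox6 call held without quiescent replicate 1, quiescent replicate 2 or reactivated replicate 1 (limma adjusted p from 0.0899 to 0.217), and the Sox9 call was lost without quiescent replicate 2 (limma adjusted p = 0.0931). The 10 lower sites included the promoters of Sox2, Sox21, Sox4 and Sox11. At Sox2 the difference was -1.19 (limma adjusted p = 0.00536), and at Sox21 it was -0.91 (limma adjusted p = 0.0120). Without centring these were -0.32 and -0.04, and the directions at Sox4 and Sox11 turned.

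Against activated NSPCs, 1 of 45 Sox gene sites was higher in reactivated NSPCs (3.67% genome-wide) and 5 were lower (8.82% genome-wide). Without centring 20 were higher and 0 lower, and with the replicate number as a block 2 were higher and 5 lower. The Sox1 promoter was among the lower ones, at -0.67 (limma adjusted p = 0.0431), and did not pass with the block (limma adjusted p = 0.0548). Nor did it pass with quantile normalisation (-0.60, limma adjusted p = 0.0746) or with all 6 libraries in 1 fit (-0.61, limma adjusted p = 0.0526). The higher one, in an intron of Sox5 (chr6:144098163-144098536), had 2.52 in quiescent replicate 2 and no peak in replicate 1, 6.50 and 3.85 in the activated and 15.7 and 17.2 in the reactivated libraries. Its difference was 1.0 (SE 0.21, limma adjusted p = 0.0282). When any 1 library was left out of this comparison no Sox gene site passed the test, and at most 1 site did genome-wide.

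Each of the 9 genes had an H3K4me3 region over at least 1 of its protein-coding start sites in both states, as did 52.5% of protein-coding genes (58.0% when regions nearer to another gene count). At Sox5, 1 region held 4 of the 7 start sites, and at Sox6, 2 of its regions held 1 each of the 8. Of the 24 regions 21 were present in quiescent and activated NSPCs (87.5%, against 89.1% of all regions), 2 in quiescent only and 1 in activated only, and 10 lay over a start site of their gene. The Sox2 region (chr3:34648016-34657723) covered 9708 bp in quiescent and 9494 bp in activated NSPCs, at the 99.9th percentile of widths in both lists, whose medians were 1734 and 1708 bp. Its fold enrichment over input was 38.6 and 32.5. The Sox21 region covered 7989 and 7623 bp, the longest Sox6 region 7912 and 7398 bp and the main Sox8 region 7982 and 7202 bp, each at or above the 99.6th percentile. Among the SoxC genes, the Sox4 region covered 6253 and 5817 bp and the Sox11 region 6424 and 6724 bp.

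Sox4 and Sox8 had the highest fold enrichments, 58.1 and 59.0 at Sox4 and 65.0 and 55.6 at Sox8 in quiescent and activated NSPCs. Sox9 had 36.7 and 48.7, the largest difference towards the activated state among the regions over a start site, a 1.43-fold difference after centring. The Sox6 alternative promoter, which had no ATAC-seq peak in quiescent NSPCs, had H3K4me3 in both states, at 8.89 in quiescent NSPCs and 6.75 in activated NSPCs. The mark was present in the state without an ATAC-seq peak there, and after centring it was 1.22-fold higher in quiescent NSPCs.

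Past a 1.5-fold difference after centring there was 1 Sox gene region higher in activated NSPCs, against 2.76% of 15572 regions genome-wide, and 1 higher in quiescent NSPCs, against 3.38%. The first was in an intron of Sox6 (chr7:115615593-115616582), at 5.48 and 8.82 (1.74-fold). The second lay 9.39 kb downstream of Sox8 (chr17:25560022-25561635), at 6.36 and 3.53 (1.67-fold). Without replicates neither difference was tested. The regions in a single state were weak, at 3.23 near Sox2 and 3.02 in Sox6 in quiescent NSPCs and at 3.37 in Sox6 in activated NSPCs.

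**Figure D5:**
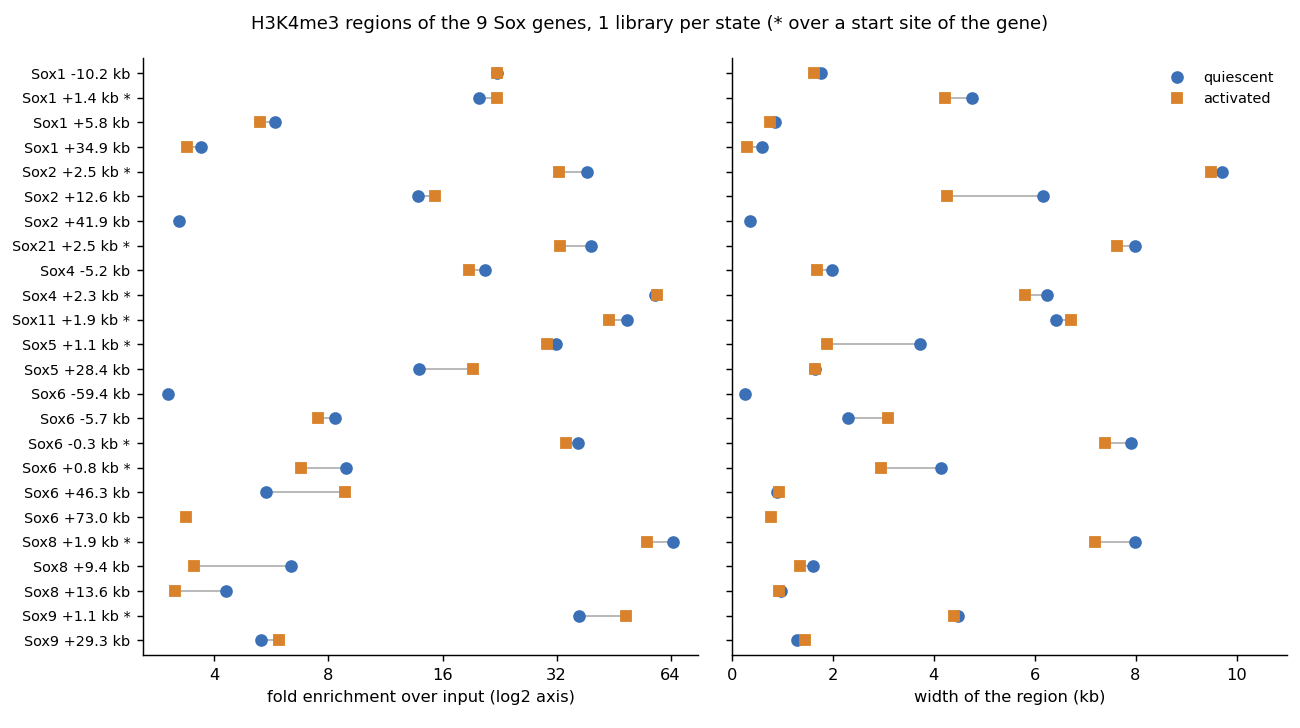
Fold enrichment over input (left, log2 axis) and width in kb (right) of the 24 H3K4me3 regions of the Sox genes, in the quiescent (blue) and activated (orange) library, labelled by distance from the nearest start site. Asterisks mark the 10 regions over a start site, among which the Sox2 region is the widest at 9708 bp.

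The letters that Sox proteins recognise were searched in the 200 bases around each summit, on both strands. ACAAT or ACAAAG was in 79 of the 149 Sox gene windows (53.0%) and in 38.8% of all 108367. ACAAT alone was in 35.6% against 24.4%, and ACAAAG in 26.2% against 19.7%. Sox5 windows held either in 32 of 41 and Sox6 windows in 23 of 41, and these genes supplied 82 of the 149 windows. Sox1, Sox2 and Sox9 windows held one in 7 of 14, 7 of 15 and 4 of 6, also above the genome-wide share. Sox8, Sox21, Sox4 and Sox11 windows held one in 3 of 10, 1 of 7, 1 of 8 and 1 of 7, below it. The pooled 53.0% thus rests mostly on Sox5 and Sox6 and does not describe every gene. Of the 17 activated-specific windows 12 held one (70.6%), against 49.8% of all activated-specific windows, and both quiescent-specific windows did. The Sox2 promoter and the downstream Sox1 window printed above held none. These counts are descriptions of letters and were not tested.

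Other motifs were searched in the same windows. TGANTCA, read by AP-1, was in 9.40% of the Sox gene windows and 7.59% of all, and in 0 of the 17 activated-specific windows against 12.7% of all activated-specific windows. TGGGAA, read by the Notch effector RBPJ, was in 22.8% of the Sox gene windows and 19.0% of all, and GGCGCC, read by SMADs, in 8.05% and 6.19%. The NFI sequence, TTGGC and GCCAA separated by 5 bases, was in 0 of the 149 windows and in 0.102% of all.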

How the data were processed

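ATAC-seq and H3K4me3 ChIP-seq peak lists of cultured mouse NSPCs were analysed as deposited. Per the labels and the methods, the authors trimmed reads with Trim Galore 0.4.0, aligned them to mm10 with Bowtie2 2.2.5, removed duplicates with Picard 1.88 and SAMtools 1.3.1 and called peaks with MACS for each library separately, narrow for ATAC-seq and broad against input for H3K4me3. Reactivated libraries were downsampled before calling. The authors' fold enrichment, a ratio of pileup to local background, was the measurement used. The deposited -log10 p and -log10 q values were used for filters and to read back the background pileup. The summit offset of the ATAC-seq lists gave the summit position, and the deposited score was not used. Read counts were not used here, so a count test was not possible.

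The 9 genes, the gene lists and the motifs were chosen with earlier results of these data known. Peaks were assigned with GENCODE M21 start sites and merged with Python 3.11.15 and pandas 2.3.3. A site was activated-specific with a peak in both activated and no quiescent library, and quiescent-specific in the reverse case. Fits used limma 3.58.1 in R 4.3.3 on log2 fold enrichment, with no pseudocount, for sites with a peak in all 4 libraries of a comparison, with Benjamini-Hochberg adjustment over all sites tested. The fit was tested on simulated data. The replicates are biologically independent per the methods, with 2 libraries a state. H3K4me3 had 1 library a state and no test, and a 1.5-fold difference after centring was counted. Named sites were, for each gene, the strongest promoter and other sites, every state-specific site, the strongest reactivated-only site and the sites past the limma threshold, of which those the results turn on are printed. Sequences were read from GRCm38, and 1 sequence and 1 motif are not reported here. The alternatives were a -log10 q of at least 10, lists of equal length, 1 library left out, 1 start site per gene, a 25 kb window, merging within 150 bp (1 kb for H3K4me3), looser classes, a 2 kb promoter, and other scalings, a replicate block, a variance trend and filled-in missing peaks in limma.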

Additional observations from a re-analysis of the deposited data

How the results depend on the processing

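The number of activated-specific Sox gene sites was above that of quiescent-specific ones under every alternative tried. Main numbers were 17 and 2. They were 8 and 0 with a -log10 q of at least 10 (11.1% and 11.7% of all sites), with 8 of the activated-specific sites then open in reactivated NSPCs. The numbers were 29 and 17 when 1 library sufficed (19.6% and 29.9% of all sites), and 16 and 1 with peaks within 150 bp merged (9.79% and 14.8% of all sites). Leaving out 1 library gave 16 to 25 and 2 to 13. Reactivated-only sites numbered 8 with lists of equal length, 30 with a -log10 q of at least 10, 65 when 1 library sufficed and 33 to 57 with 1 library left out. Genome-wide shares of reactivated-only sites under these alternatives were not computed. H3K4me3 regions past 1.5-fold numbered 2 and 0 with a -log10 q of at least 10.

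In limma, activated against quiescent, Sox gene sites higher in activated NSPCs numbered 1 with quantile normalisation or a variance trend, 18 with missing peaks set to the lowest value, 0 with a -log10 q of at least 10 and 0 to 1 with a library left out. Those higher in quiescent NSPCs numbered 2 with missing peaks filled and 1 with a trend. Over all sites (1093 and 957) the counts were 1643 and 319 without centring, 5316 and 7242 with missing peaks filled, 328 and 277 at the stricter q, and 315 to 1056 and 224 to 1229 with a library left out.

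For reactivated against quiescent, Sox gene sites higher and lower numbered 17 and 0 without centring, 32 and 10 with missing peaks filled, 1 and 6 at the stricter q, 5 and 5 with quantile normalisation, and 2 to 5 and 0 to 8 with a library left out. Over all sites (2830 and 7005) they were 18966 and 285, 13877 and 8925, 1628 and 4005, 3092 and 3054, and 725 to 2250 and 1172 to 5211. For reactivated against activated, Sox gene sites numbered 20 and 0 without centring, 5 and 1 with missing peaks filled, 3 and 5 at the stricter q, 1 and 1 with quantile normalisation, 2 and 4 with all 6 libraries in 1 fit or with merging within 150 bp, 3 and 7 with a trend, and 0 and 0 with any library left out. Over all sites (1129 and 2714) they were 14425 and 102, 1575 and 694, 851 and 1691, 736 and 505, 1531 and 2299 (merged 1163 and 2464), 1783 and 4906, and 0 and 0 to 1. Without centring 8 sites lower in reactivated than in quiescent NSPCs turned, to 0.30 (Sox11 promoter), 0.01 and 0.03 (Sox4), 0.21 and 0.04 (Sox21), 0.05 (Sox8), 0.10 (Sox2) and 0.07 (Sox1), and the Sox1 promoter against activated NSPCs turned to 0.04. With missing peaks filled, other calls named above that were lost in limma were the downstream Sox1 site at 0.80 (adjusted p = 0.0854), the Sox11 promoter at -0.73 (0.0537) and, for reactivated against activated NSPCs, the Sox5 site at 0.70 (0.215), the Sox1 promoter at -0.97 (0.120) and the Sox8 site at -1.11 (0.0962). The cause was not tested.

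Replicate numbers are shared by the states, and the labels name no pairing. The methods take the replicate as a library preparation batch in a comparison of ages, which is not analysed here. The replicate differences of 2 states correlated across sites with r of 5.73e-05, 0.0259 and -0.0158. A replicate block gave 1264 and 1126 sites for activated against quiescent (2 and 0 of the Sox genes), 3112 and 7580 for reactivated against quiescent (5 and 11) and 978 and 2185 for reactivated against activated (2 and 5), where the Sox1 promoter moved to an adjusted p of 0.0548 in limma. With 2 libraries a state and peaks as the unit, an absent peak is a value below the caller's limit and not a closed site.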

Other observations

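The 11 other Sox genes had 45 sites. Promoter peaks in all 6 libraries were found at Sox3, a SoxB1 gene, Sox12, a SoxC gene, and Sox13, a SoxD gene, and no library had one at Sox10, Sox14 or Sry. Of 17 sites with a peak in at least 2 of the 4 quiescent and activated libraries, 3 were activated-specific and all of these belonged to Sox13, and 1 was quiescent-specific, at Sox7. The first share was above the genome-wide 9.97%, and the second was below the genome-wide 14.7%. The Sox13 promoter had 3.38 and 2.14 in the quiescent libraries, 4.87 and 4.40 in the activated and 6.45 and 5.78 in the reactivated libraries. The Sox30 promoter, of a gene used in the germ line, had 3.29 and no peak in the quiescent libraries, 3.45 and 3.57 in the activated and 10.9 and 10.3 in the reactivated libraries.

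The 4 POU class III genes, whose products bind DNA beside Sox2, had 43 sites and a promoter peak in all 6 libraries at each gene. Of 21 sites with a peak in at least 2 of the 4 libraries, 5 were activated-specific and 5 quiescent-specific. Both shares were above the genome-wide 9.97% and 14.7%, so a raised activated-specific share was also seen at these genes. The Pou3f4 promoter had 12.8 and 14.1 in the quiescent libraries, 9.57 and 10.5 in the activated and 10.9 and 10.4 in the reactivated libraries, with both quiescent values above the others. Pou3f3 held 3 sites of each kind. No test was run on these lists.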
